A study of Homo sapiens with 12 samples.

Results

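The genes described here encode the proteasome, the machines that assemble it and the factor that drives its transcription. They were chosen by symbol, with earlier results of these data known: PSMA1 to PSMA7, PSMB1 to PSMB10, PSMC1 to PSMC6, PSMD1 to PSMD14, PSME1 to PSME4, ADRM1, POMP, PSMG1 to PSMG4 and NFE2L1, as far as the table held them. This gave 48 of 20036 genes, and 5 of them (PSMB8, PSMB9, PSMB10, PSME1 and PSME2) were set apart as the immunoproteasome. RNA came from MV-4-11 cells, an established line of acute myeloid leukaemia that carries a mutated FLT3 receptor and a KMT2A fusion, labelled as wild type and as bone marrow in origin. The 4 groups of 3 libraries were DMSO (solvent only), HPA-12 ((1R,3S)-HPA-12, which blocks CERT, the carrier of ceramide between membranes), crenolanib (an inhibitor of the FLT3 kinase) and the combination of both compounds. The treated groups were sampled at 48 h. No time is given for DMSO, and no dose for either compound. Nothing in the labels tells whether the 3 libraries of a group are separate cultures, so p-values measure only their spread, which may be technical.

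The proteasome is the protease that degrades proteins tagged with ubiquitin. Its core particle is a barrel of alpha and beta rings with the catalytic sites inside, and a regulatory particle, made of a base and a lid, recognises, unfolds and feeds in the substrate. Haematopoietic cells can exchange the catalytic beta subunits for immunoproteasome subunits that favour peptides for antigen presentation, and NFE2L1 is the transcription factor known to raise proteasome genes when proteasome activity falls.

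NFE2L1 is known to bind antioxidant response elements, and interferon-responsive genes often carry interferon-stimulated response elements. Both were searched as plain letters in RefSeq promoters of build GRCh38.p14, which run from 250 bases before to 50 bases after a gene start. The antioxidant element was TGACNNNGC and the interferon element GAAA, any 2 bases and GAAA again, each on both strands, and CCAAT was searched as a common promoter box. Promoters were found for 42 of the 48 genes. The antioxidant letters were present in 16 of these 42 genes, or in 32.7% of their 52 promoters against 13.3% of all 35116 promoters. The interferon letters were present in 7 genes, 4 of them among the 5 immunoproteasome genes, or in 13.5% of the promoters against 3.57% of all. CCAAT was present in 21 genes, or in 42.3% of the promoters against 34.6% of all. Windows from 6 of these promoters are shown because their genes are among those whose values are given below. The antioxidant letters also stand before genes that moved in different ways. The 30 bases shown for each of PSMG1, PSMB10 and PSME2 lie in exons of the gene in GENCODE release 29. They are written 5′ to 3′ on the strand of the gene with the matched letters in capitals, at chr17:38752621-38752735 (plus strand) for PSMB3, chr17:39980677-39980795 (plus) for PSMD3, chr21:39183616-39183645 (minus) for PSMG1, chr17:67366678-67366797 (minus) for PSMD12, chr16:67936852-67936881 (minus) for PSMB10 and chr14:24146619-24146648 (minus) for PSME2.
PSMB3: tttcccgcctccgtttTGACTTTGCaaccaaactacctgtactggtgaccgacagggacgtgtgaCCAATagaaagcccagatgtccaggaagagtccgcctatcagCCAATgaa
PSMD3: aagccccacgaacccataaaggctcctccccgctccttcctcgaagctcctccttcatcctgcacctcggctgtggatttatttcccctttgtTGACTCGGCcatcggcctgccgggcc
PSMG1: ggcccagggcaTGACAGCGCgggcgggcgg
PSMD12: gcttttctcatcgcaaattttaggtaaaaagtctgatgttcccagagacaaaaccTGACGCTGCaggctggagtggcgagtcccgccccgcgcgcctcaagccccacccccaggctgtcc
PSMB10: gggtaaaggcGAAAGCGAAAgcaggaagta
PSME2: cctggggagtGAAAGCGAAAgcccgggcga
The capitals mark the antioxidant letters in PSMB3, PSMD3, PSMG1 and PSMD12, CCAAT in PSMB3, and the interferon letters in PSMB10 and PSME2. A match describes these letters and not a bound site.

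The libraries differed between groups in ways that touch every value below. Estimated depth (M reads, mean ± SD, n = 3) was 14.5 ± 1.33 in DMSO, 12.4 ± 0.364 for HPA-12, 10.1 ± 0.0894 for crenolanib and 4.69 ± 0.344 for the combination. The 13 mitochondrially encoded genes took 19.8% of FPKM in DMSO, 21.6% under HPA-12, 36.0% under crenolanib and 62.2% under the combination. The correlation between libraries of a group was at least 0.984 in the first 3 groups and 0.907 to 0.910 in the combination. All 8 myeloid markers of the line, CD33 and FLT3 among them, were at 1 FPKM or more in every library. Their sum was 809 to 830.4 FPKM in DMSO, 641 to 649.8 under HPA-12, 732 to 742 under crenolanib and 314 to 337 under the combination. Of the 8 genes, 2 fell and 6 rose with HPA-12, and 4 fell and 4 rose with crenolanib. With the combination 6 fell and 1 rose. The shares of all genes that fell and rose were 34.5% and 43.2%, 39.4% and 36.1%, and 50.1% and 12.4% in the same order. Summed over 13 erythroid markers the level went from 77.6 to 84.5 FPKM in DMSO to 217 to 224 under HPA-12 (10 of 13 higher), 4324 to 4602 under crenolanib and 27154 to 27591 under the combination. The 6 lymphoid markers summed to 63.9 to 65.7 FPKM in DMSO, 52.1 to 55.5 under HPA-12, 27.4 to 37.6 under crenolanib and 23.5 to 27.3 under the combination. Only 2 of the 6 were at 1 FPKM or more in every DMSO library, and 3 passed the filter on low values. The 6 stromal and epithelial markers, 2 of them at 0 in every DMSO library, summed to 13.5 to 14.8 FPKM in DMSO, 58.6 to 61.8 under HPA-12, 24.6 to 29.004 under crenolanib and 8.85 to 25.9 under the combination. Of these 6 markers 2 passed the filter, with log2 changes of -0.29 and 2.19 with HPA-12. The part of these shifts in the proteasome values was not tested, and in bulk RNA fewer cells of a type and less RNA per cell cannot be told apart.

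In DMSO the proteasome genes together held 1797 ± 25.1 FPKM (fragments scaled by gene length and library size; SD, n = 3). The sum was 1099 ± 16.5 FPKM under HPA-12, 1116 ± 12.8 under crenolanib and 869.8 ± 36.2 under the combination. These sums are as deposited and were not recomputed after scaling. Median-ratio scaling divides each library by a factor, 1.12 to 1.20 in DMSO, HPA-12 and crenolanib libraries and 0.699 to 0.709 in the combination. The place of the combination below the single compounds therefore holds only for the values as deposited. No treated library reached the DMSO range, which began at 1773 FPKM. The highest single level in DMSO was that of PSMD2, the large scaffold of the base, at 140.4 ± 1.82 FPKM, followed by the core subunits PSMB3 at 134 ± 6.45 and PSMB4 at 124 ± 6.73. The libraries of neighbours in this order overlapped. PSMA2, PSMA6 and PSMD9 were at 0.123 ± 0.0461, 0.554 ± 0.120 and 0.567 ± 0.0696 FPKM and did not pass the filter of 1 FPKM in at least 3 of the 12 libraries. That left 45 genes that were tested. PSMA2 and PSMA6 are alpha subunits that every core particle needs, and their listed levels stand far below those of the other subunits.

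Most proteasome genes were lower with HPA-12 than with DMSO. Of the 45 tested, 37 fell, 1 rose and 7 did not pass the test (limma on log2 of FPKM plus 1, adjusted p below 0.05 over 11149 genes), where 34.5% of all genes fell and 43.2% rose. The median change of the 45 was -0.62 on the log2 scale, against 0.09 for all genes tested. With crenolanib 32 fell, 6 rose and 7 did not pass, where 39.4% of all genes fell and 36.1% rose, with a median of -0.55 against -0.04. With the combination 32 fell, 13 did not pass and 0 rose in the limma test (1 rose at an unadjusted p below 0.05), where 50.1% of all genes fell and 12.4% rose. The median was -0.89 against -0.62 for all genes. Here the shift of all genes counts. After median-ratio scaling, which sets the all-gene median at -0.12, 16 fell and 7 rose with a median of -0.21. At that scaling 26.1% of all genes fell and 21.4% rose. The split of the 45 genes was the same with upper-quartile scaling (26.2% and 21.4% of all genes). For the combination, values after median-ratio scaling stand beside those of many of the proteasome genes described below. Values and counts by role with no scaling or smoothing named are as deposited. Counts by role as deposited stand against the deposited shares of all genes given here. Counts by role after median-ratio scaling stand against 26.1% and 21.4% for the combination. For HPA-12 that scaling gave 35.3% of all genes lower and 41.9% higher. No test set the counts by role against these shares. Every treated library lay below every DMSO library in 38 genes for HPA-12 (35.3% of all genes), 32 for crenolanib (40.4%) and 35 for the combination (56.4%). All treated libraries lay above DMSO in 1, 8 and 2 genes in the same order, a direction not counted over all genes. Leaving out any 1 library kept the falls at 35 to 37 for HPA-12, at 30 to 32 for crenolanib and at 28 to 37 for the combination.

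**Figure D1:**
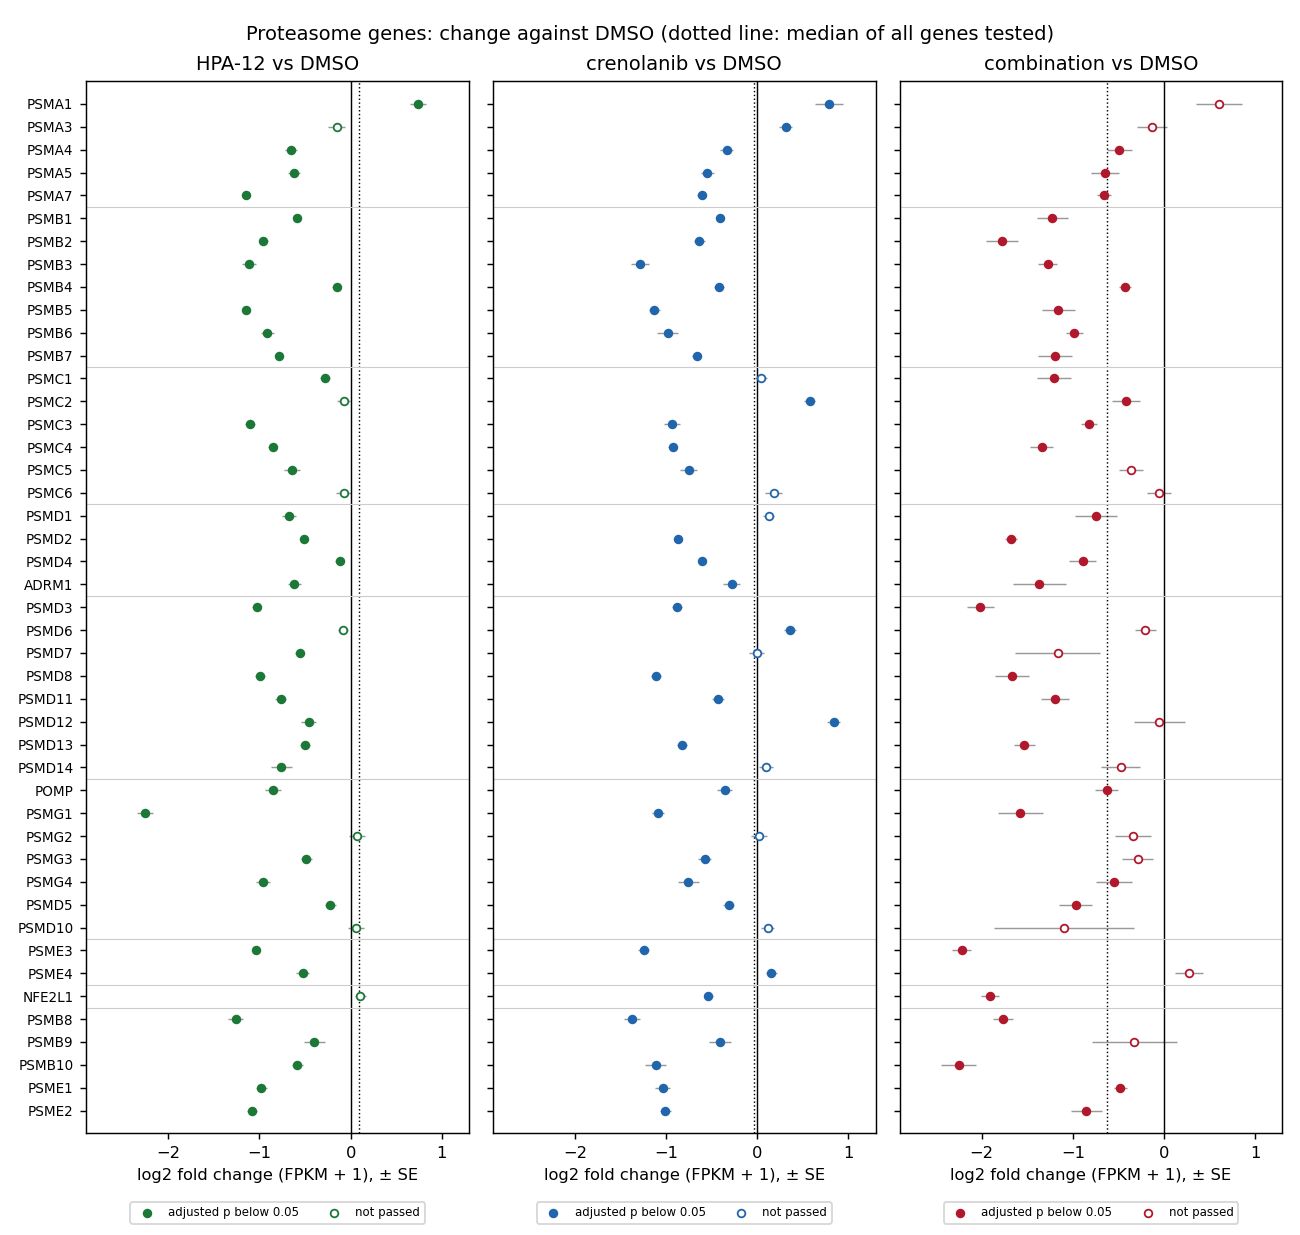
Log2 fold change against DMSO (x axis, FPKM plus 1, with the standard error) of the 45 tested proteasome genes (rows, grouped by role from the alpha ring at the top to the immunoproteasome at the bottom). Filled points passed the test and the dotted line is the median of all genes tested: 37 points are filled on the left for HPA-12, and 6 genes are filled on the right for crenolanib.

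The 3 catalytic subunits of the standard core fell by similar amounts with either compound. PSMB5 carries the chymotrypsin-like site, the main target of clinical proteasome inhibitors, and stood at 62.8, 63.3 and 66.8 FPKM in the DMSO libraries, 28.04, 28.4 and 28.99 under HPA-12, 30.9, 26.99 and 28.8 under crenolanib and 21.1, 35.8 and 29.7 under the combination. Every treated library lay below every DMSO library, and the treated groups overlapped each other. The log2 change of PSMB5 was -1.15 ± 0.04 (SE, adjusted p = 4.08e-09) under HPA-12, -1.13 ± 0.06 (SE, adjusted p = 2.18e-07) under crenolanib and -1.16 ± 0.18 (SE, adjusted p = 0.00146) under the combination. The last value became -0.48 with an adjusted p of 0.0745 after median-ratio scaling.

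PSMB6, with the caspase-like site, read 48.4, 51.8 and 53.00 FPKM in DMSO, 28.97, 23.5 and 27.7 under HPA-12, 20.5, 28.1 and 28.05 under crenolanib and 27.3, 23.4 and 25.4 under the combination. Its treated libraries again fell below all DMSO libraries, with log2 changes of -0.91 ± 0.07 (SE, adjusted p = 9.39e-07) under HPA-12, -0.98 ± 0.11 (SE, adjusted p = 3.25e-05) under crenolanib and -0.98 ± 0.09 (SE, adjusted p = 0.000148) under the combination. PSMB7, with the trypsin-like site, read 82.7, 79.5 and 81.5 FPKM in DMSO, 47.9, 47.6 and 44.4 under HPA-12, 49.1, 50.7 and 52.7 under crenolanib and 26.8, 47.1 and 33.7 under the combination. The combination libraries of PSMB7 spread widely, yet the groups did not overlap with DMSO. Its changes were -0.79 ± 0.05 (SE, adjusted p = 7.31e-08), -0.67 ± 0.05 (SE, adjusted p = 1.16e-06) and -1.19 ± 0.19 (SE, adjusted p = 0.00155) in the same order. After median-ratio scaling the combination values were -0.31 (adjusted p = 0.0279) for PSMB6 and -0.51 (adjusted p = 0.0695) for PSMB7.

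**Figure D2:**
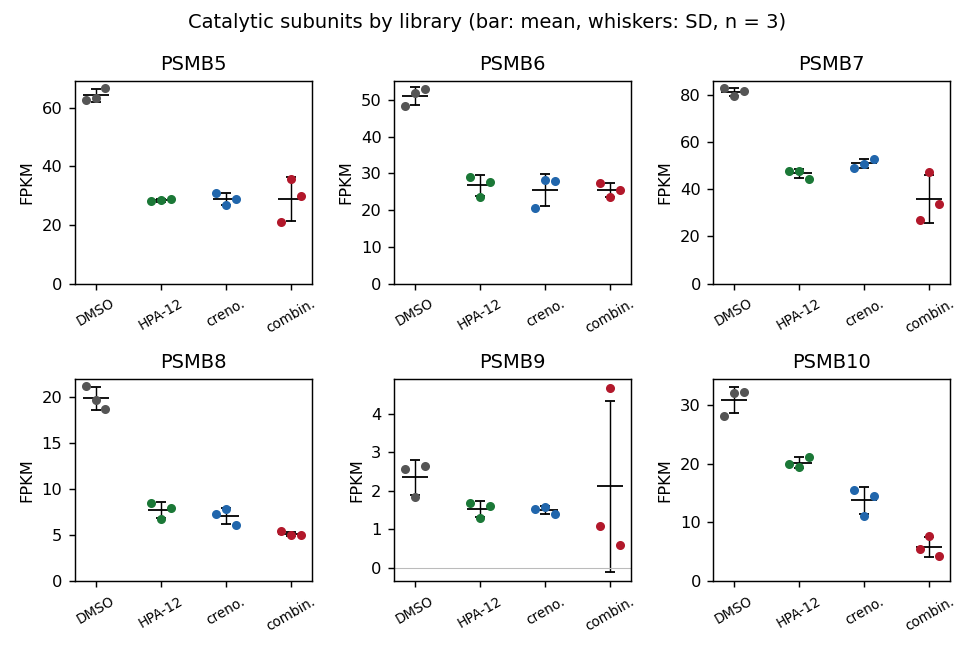
FPKM (y axis, from 0) of the standard catalytic subunits (top row) and their immunoproteasome counterparts (bottom row) in each library (points) of the 4 groups, with the mean and SD of 3 libraries. PSMB5 stands near 64.3 FPKM in DMSO and near 28.5 to 28.9 in the treated groups, and 1 combination library of PSMB9 stands at 4.67 FPKM.

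All 7 standard beta subunits fell in each comparison with DMSO as deposited. For the combination 4 fell and 1, PSMB4, rose after median-ratio scaling. After smoothing over GC content 1 fell and 1 rose, where 20.7% of all genes fell and 21.6% rose. This smoothing subtracts the trend of each library over the GC content of the genes. The shift of a library as a whole is removed with it. PSMB3, a structural beta subunit, was at 139.6, 127 and 136 FPKM in DMSO, 62.9, 54.1 and 67.98 under HPA-12, 45.3, 59.4 and 60.04 under crenolanib and 56.6, 60.4 and 48.01 under the combination. No treated library of PSMB3 came near the DMSO range. The log2 changes of PSMB3 were -1.12 ± 0.07 (SE, adjusted p = 2.5e-07), -1.29 ± 0.10 (SE, adjusted p = 2.57e-06) and -1.28 ± 0.10 (SE, adjusted p = 6.73e-05), the last being -0.59 (adjusted p = 0.00353) after median-ratio scaling. PSMB4, another structural subunit, moved least of the ring with HPA-12, at -0.15 ± 0.05 (SE, adjusted p = 0.0159), a call lost with mitochondrially encoded genes left out of the total (-0.043, adjusted p = 0.429) and after GC smoothing (-0.11, adjusted p = 0.0514). With the combination PSMB4 stood at -0.43 as deposited, at 0.26 after median-ratio scaling (adjusted p = 0.0159) and at 0.49 after GC smoothing (adjusted p = 0.00121). PSMB2 moved most of the ring with the combination, at -1.78 ± 0.18 (SE, adjusted p = 0.000198), or -1.13 (adjusted p = 0.00282) after median-ratio scaling.

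The alpha ring, which gates the entry to the core, was more mixed. Of its 5 tested genes 3 fell and 1 rose with HPA-12, 3 fell and 2 rose with crenolanib, and 3 fell with the combination. After median-ratio scaling 0 fell and 2 rose with the combination. PSMA7 was at 103, 107 and 110.4 FPKM in DMSO, 48.1, 48.01 and 47.2 under HPA-12, 66.8, 69.8 and 72.05 under crenolanib and 73.04, 62.8 and 66.00 under the combination. HPA-12 gave the lowest group, with no overlap with the other 3. Its changes were -1.14 ± 0.04 (SE, adjusted p = 3.39e-09), -0.61 ± 0.05 (SE, adjusted p = 2.83e-06) and -0.66 ± 0.08 (SE, adjusted p = 0.000444), and the last became 0.027 after median-ratio scaling.

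PSMA1 went the other way. It read 2.73, 3.12 and 3.07 FPKM in DMSO, 5.12, 6.26 and 5.57 under HPA-12, 6.48, 4.27 and 7.21 under crenolanib and 5.51, 6.98 and 3.21 under the combination. Every treated library was above every DMSO library, and the change was 0.74 ± 0.09 (SE, adjusted p = 2.21e-05) under HPA-12, 0.79 ± 0.15 (SE, adjusted p = 0.0012) under crenolanib and 0.60 ± 0.25 (SE, adjusted p = 0.0753) under the combination. The last value passed without combination replicate 3, at 0.86 (adjusted p = 0.00426), and after median-ratio scaling, at 1.17 (adjusted p = 0.0116). GENCODE release 29 gives 24.7% of the exon bases of PSMA1 also to another gene on the same strand, so reads may have been shared between them. PSMA3 also rose with crenolanib, by 0.31 ± 0.07 (SE, adjusted p = 0.00324), but stood at -0.16 after GC smoothing (adjusted p = 0.0733).

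In the base, the ring of 6 ATPases that unfolds the substrate had 4 genes that fell with HPA-12, 3 that fell and 1 that rose with crenolanib, and 4 that fell with the combination. After median-ratio scaling 2 fell and 1 rose with the combination. PSMC3 and PSMC4 fell with each treatment as deposited, PSMC3 with log2 changes of -1.10 ± 0.05 (SE, adjusted p = 2.21e-08) with HPA-12 and -0.93 ± 0.09 (SE, adjusted p = 1.05e-05) with crenolanib. With the combination PSMC3 stood at -0.82 (adjusted p = 0.000243), at -0.14 after median-ratio scaling (adjusted p = 0.227) and at 0.19 after GC smoothing (adjusted p = 0.126). The combination value of PSMC4 was -1.34 (adjusted p = 0.000159), and -0.34 after GC smoothing (adjusted p = 0.0634). PSMC2 read 8.92, 9.37 and 9.01 FPKM in DMSO, 7.93, 9.21 and 8.66 under HPA-12, 13.8, 14.5 and 13.97 under crenolanib and 7.55, 6.94 and 5.36 under the combination. Its crenolanib libraries stood above those of every other group and its combination libraries below the DMSO libraries. The changes of PSMC2 were -0.08 ± 0.07 (SE, adjusted p = 0.332), 0.58 ± 0.06 (SE, adjusted p = 2.22e-05) and -0.42 ± 0.15 (SE, adjusted p = 0.0481). The rise with crenolanib became -0.021 after smoothing over GC content, and the fall with the combination became 0.20 after median-ratio scaling. That fall also did not pass without any 1 of the DMSO libraries, with adjusted p from 0.125 to 0.152.

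The other base subunits are scaffolds and ubiquitin receptors, and all 4 fell with HPA-12, 3 with crenolanib and all 4 with the combination. After median-ratio scaling 3 fell with HPA-12 and 1 with the combination. PSMD2 fell, with log2 changes of -0.51 ± 0.04 (SE, adjusted p = 5.23e-07) under HPA-12, -0.87 ± 0.04 (SE, adjusted p = 9.53e-08) under crenolanib and -1.68 ± 0.06 (SE, adjusted p = 3.6e-06) under the combination, the last being -0.99 (adjusted p = 5.67e-05) after median-ratio scaling. PSMD4, a ubiquitin receptor, fell, with log2 changes of -0.12 ± 0.05 (SE, adjusted p = 0.0431), -0.61 ± 0.05 (SE, adjusted p = 3.18e-06) and -0.89 ± 0.15 (SE, adjusted p = 0.00194) in the same order, the last being -0.21 (adjusted p = 0.299) after that scaling. Its fall with HPA-12 was the smallest of the 4 and did not pass after median-ratio scaling (-0.15, adjusted p = 0.064), with mitochondrially encoded genes left out (-0.012, adjusted p = 0.828) or after GC smoothing (-0.056, adjusted p = 0.246). ADRM1, the receptor that also recruits a deubiquitinase, fell, with log2 changes of -0.62 ± 0.07 (SE, adjusted p = 1.45e-05), -0.28 ± 0.10 (SE, adjusted p = 0.0229) and -1.37 ± 0.29 (SE, adjusted p = 0.00588), the last being -0.72 (adjusted p = 0.0942) after that scaling. The crenolanib value of ADRM1 did not pass with mitochondrially encoded genes left out (-0.16, adjusted p = 0.155) and turned to 0.19 after GC smoothing (adjusted p = 0.11).

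The lid carries the deubiquitinase PSMD14 and a horseshoe of scaffold subunits. Of its 8 genes 7 fell with HPA-12, 4 fell and 2 rose with crenolanib, and 4 fell with the combination. The shares of all genes that fell were 34.5%, 39.4% and 50.1% in the same order. After median-ratio scaling PSMD3, PSMD8, PSMD11 and PSMD13 fell with the combination and PSMD6 rose. PSMD3, a lid scaffold, read 61.1, 61.1 and 60.1 FPKM in DMSO, 29.6, 27.9 and 30.2 under HPA-12, 35.4, 31.4 and 30.9 under crenolanib and 11.4, 17.2 and 14.9 under the combination. The combination libraries were the lowest and overlapped no other group. The change was -1.03 ± 0.05 (SE, adjusted p = 1.02e-08), -0.88 ± 0.06 (SE, adjusted p = 9.83e-07) and -2.01 ± 0.15 (SE, adjusted p = 5.2e-05), the last being -1.35 after median-ratio scaling (adjusted p = 0.00063).

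PSMD12, also a lid scaffold, stood at 9.30, 9.14 and 9.49 FPKM in DMSO, 5.56, 7.11 and 6.91 under HPA-12, 17.99, 16.1 and 18.3 under crenolanib and 9.15, 5.61 and 13.7 under the combination. HPA-12 libraries were below DMSO, crenolanib libraries above it, and the combination libraries below, within and above it. Its changes were -0.46 ± 0.09 (SE, adjusted p = 0.000591), 0.84 ± 0.07 (SE, adjusted p = 3.77e-06) and -0.05 ± 0.28 (SE, adjusted p = 0.885), and the rise with crenolanib was 0.18 after smoothing over GC content (adjusted p = 0.0393). PSMD6, the other lid gene that rose, read 9.10, 9.46 and 9.33 FPKM in DMSO and 11.9, 12.9 and 11.7 with crenolanib, a change of 0.36 ± 0.07 (SE, adjusted p = 0.000839). Its HPA-12 libraries read 8.79, 8.90 and 8.47 FPKM and its combination libraries 8.48, 7.91 and 7.44. Both of these groups lay below every DMSO library, but neither passed the test as deposited, at -0.08 ± 0.06 (SE, adjusted p = 0.217) and -0.20 ± 0.12 (SE, adjusted p = 0.171). The HPA-12 value passed as a fall after GC smoothing, at -0.16 (adjusted p = 0.0124). The combination value passed as a rise after median-ratio scaling, at 0.42 (adjusted p = 0.0241). PSMD14 itself was at 7.69 ± 0.426 FPKM in DMSO and fell, with a log2 change of -0.76 ± 0.11 (SE, adjusted p = 0.000113) with HPA-12, while its crenolanib value of 0.10 did not pass, except with mitochondrially encoded genes left out (0.21, adjusted p = 0.0257).

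Assembly of the core needs dedicated chaperones. Of the 7 tested genes of assembly, 5 fell under HPA-12, 5 under crenolanib and 4 under the combination, and the others did not pass. With median-ratio scaling 1 fell under the combination. PSMG1, a chaperone of the alpha ring, gave the largest change of all proteasome genes with HPA-12. Its libraries read 21.5, 20.2 and 21.9 FPKM in DMSO, 3.14, 4.24 and 3.67 under HPA-12, 9.56, 10.01 and 8.74 under crenolanib and 8.03, 3.94 and 8.28 under the combination. All treated libraries were below DMSO, the HPA-12 libraries overlapped only with the combination, and the change was -2.25 ± 0.09 (SE, adjusted p = 4.18e-09), -1.09 ± 0.07 (SE, adjusted p = 7.31e-07) and -1.57 ± 0.25 (SE, adjusted p = 0.00161). The last value was -0.95 (adjusted p = 0.0248) after median-ratio scaling.

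PSMG2, which forms a pair with PSMG1 in the cell, did not pass the test in any comparison with DMSO, at 0.07, 0.02 and -0.34 for HPA-12, crenolanib and the combination. POMP, the maturation factor that is degraded as the core is completed, stood at 30.3, 27.97 and 32.8 FPKM in DMSO, 13.9, 17.3 and 18.2 under HPA-12, 21.9, 22.2 and 26.3 under crenolanib and 21.4, 16.6 and 19.97 under the combination. Each treated group was below DMSO, and HPA-12 lay below crenolanib without overlap. The changes of POMP were -0.85 ± 0.09 (SE, adjusted p = 1.06e-05), -0.36 ± 0.08 (SE, adjusted p = 0.0034) and -0.63 ± 0.12 (SE, adjusted p = 0.00419), the last being 0.038 after median-ratio scaling. PSMD10, a chaperone of the base, read 9.95, 9.93 and 8.83 FPKM in DMSO but 1.71, 1.32 and 18.1 with the combination, so 1 combination library stood above DMSO and the other two far below.

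Among the other activators, PSME3, a nuclear cap of the core, fell with every treatment. It read 72.6, 70.1 and 68.3 FPKM in DMSO, 35.1, 33.7 and 32.5 under HPA-12, 31.2, 26.98 and 29.1 under crenolanib and 14.7, 12.6 and 15.8 under the combination. The 4 groups were in this order with no overlap between any neighbours. Its changes were -1.04 ± 0.05 (SE, adjusted p = 1.14e-08), -1.25 ± 0.06 (SE, adjusted p = 1.45e-07) and -2.22 ± 0.10 (SE, adjusted p = 8.84e-06), and the last was -1.56 after median-ratio scaling (adjusted p = 6.89e-05). PSME4, a cap associated with histone degradation, fell, with a log2 change of -0.53 ± 0.07 (SE, adjusted p = 3.91e-05) with HPA-12 and rose by 0.15 ± 0.06 (SE, adjusted p = 0.0497) with crenolanib. After GC smoothing that rise turned to -0.25 (adjusted p = 0.00556). With the combination PSME4 stood at 0.27 and did not pass as deposited (adjusted p = 0.163). It passed as a rise after median-ratio scaling, at 0.91 (adjusted p = 0.00354), and after GC smoothing, at 0.49 (adjusted p = 0.0387).

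NFE2L1, the transcription factor, fell in the crenolanib and combination libraries, whereas its value under HPA-12 did not pass the test. It read 42.04, 45.01 and 43.7 FPKM in DMSO, 51.7, 45.4 and 44.4 under HPA-12, 29.8, 30.6 and 28.8 under crenolanib and 11.4, 11.4 and 9.87 under the combination. HPA-12 overlapped with DMSO, crenolanib lay below both, and the combination below all. The changes were 0.11 ± 0.06 (SE, adjusted p = 0.124) under HPA-12, -0.54 ± 0.05 (SE, adjusted p = 1e-05) under crenolanib and -1.91 ± 0.10 (SE, adjusted p = 1.41e-05) under the combination. The last was -1.26 after median-ratio scaling (adjusted p = 0.000117) and -0.91 after smoothing over GC content (adjusted p = 0.000594), and the crenolanib value was -0.15 after that smoothing. For HPA-12 the value passed the test, at 0.22, only with mitochondrially encoded genes left out of the total and, at 0.20, after the smoothing.

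**Figure D3:**
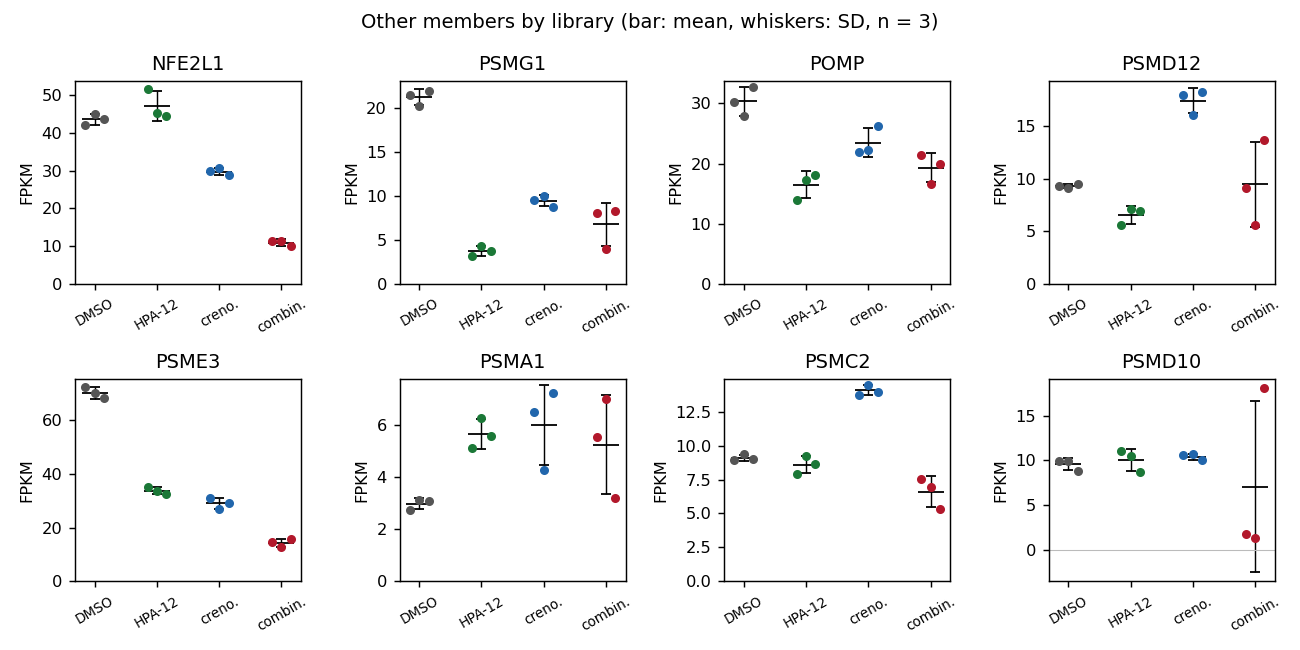
FPKM (y axis) of NFE2L1, assembly factors, activators and subunits that moved differently from the rest, in each library (points) of the 4 groups, with the mean and SD of 3 libraries. NFE2L1 stays near DMSO with HPA-12 and falls to 9.87 to 11.4 FPKM with the combination, PSMD12 and PSMC2 are highest with crenolanib, and PSMD10 has 1 combination library at 18.1 FPKM.

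All 5 immunoproteasome genes fell with HPA-12 and with crenolanib, and 4 fell with the combination. After median-ratio scaling 2 fell and 1 rose with the combination. Their summed level as deposited, not recomputed after scaling, went from 181 ± 6.06 FPKM in DMSO to 92.4 ± 4.60, 84.3 ± 4.18 and 99.96 ± 8.71. PSMB8, the chymotrypsin-like immunosubunit, read 21.2, 19.7 and 18.7 FPKM in DMSO, 8.46, 6.77 and 7.96 under HPA-12, 7.28, 7.82 and 6.17 under crenolanib and 5.42, 4.99 and 5.00 under the combination. All treated libraries were below DMSO, and the changes were -1.26 ± 0.08 (SE, adjusted p = 1.66e-07), -1.37 ± 0.09 (SE, adjusted p = 8.69e-07) and -1.77 ± 0.11 (SE, adjusted p = 3.24e-05), the last being -1.15 (adjusted p = 0.00037) after median-ratio scaling. Of its exon bases, 20.6% are shared with genes on the opposite strand, and whether counting used the strand is not stated.

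PSMB10, the trypsin-like immunosubunit, read 28.2, 31.9 and 32.1 FPKM in DMSO, 19.9, 19.4 and 21.2 under HPA-12, 15.5, 11.1 and 14.6 under crenolanib and 5.45, 7.64 and 4.28 under the combination. The groups fell in that order without overlap, with log2 changes of -0.58 ± 0.06 (SE, adjusted p = 8.17e-06), -1.12 ± 0.11 (SE, adjusted p = 1.46e-05) and -2.25 ± 0.19 (SE, adjusted p = 0.0001). The combination value of PSMB10 was -1.63 after median-ratio scaling (adjusted p = 0.000866). A same-strand neighbour shares 34.8% of its exon bases, so these values carry that uncertainty.

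PSMB9, the immunosubunit counterpart of PSMB6, was low, at 2.57, 1.83 and 2.65 FPKM in DMSO, 1.69, 1.29 and 1.62 under HPA-12, 1.52, 1.58 and 1.40 under crenolanib and 1.09, 4.67 and 0.586 under the combination. Combination replicate 2 stood above all other libraries. That library also held collagen transcripts at levels not seen elsewhere, with COL1A1 at 6.81 and COL3A1 at 8.49 FPKM against at most 0.337 and 0.25 in any other library, and the part of this in PSMB9 was not tested. PSMB9 had log2 changes of -0.40 ± 0.11 (SE, adjusted p = 0.00821) under HPA-12, -0.41 ± 0.12 (SE, adjusted p = 0.012) under crenolanib and -0.32 ± 0.46 (SE, adjusted p = 0.565) under the combination, and without combination replicate 2 the last value was -0.87 (adjusted p = 0.0123). The crenolanib value of PSMB9 was -0.064 after GC smoothing (adjusted p = 0.664). Without DMSO replicate 1 the crenolanib value was -0.36 (adjusted p = 0.0567), and without DMSO replicate 3 it was -0.35 (adjusted p = 0.0623).

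The activator genes PSME1 and PSME2, whose products form a cap that opens the core, fell, with log2 changes of -0.98 ± 0.06 (SE, adjusted p = 1.16e-07) and -1.09 ± 0.05 (SE, adjusted p = 2.65e-08) with HPA-12. With crenolanib the changes were -1.04 ± 0.08 (SE, adjusted p = 3.05e-06) for PSME1 and -1.01 ± 0.06 (SE, adjusted p = 5.69e-07) for PSME2, and with the combination -0.48 ± 0.07 (SE, adjusted p = 0.00105) and -0.85 ± 0.17 (SE, adjusted p = 0.00445). For PSME1 the fall with the combination turned into a rise of 0.21 after median-ratio scaling (adjusted p = 0.0397), and PSME2 stood at -0.19 (adjusted p = 0.397).

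A ratio of an immunosubunit to its standard counterpart within a library does not depend on library scaling. It can still carry a library's trend over GC content, and the ratios were not smoothed for it. The longest coding transcripts of PSMB10 and PSMB7 have 60.1% and 49.9% GC. After GC smoothing their combination values against DMSO were -1.24 and -0.37. The exon overlap of PSMB10 given above also limits its ratio. PSMB10 to PSMB7 was 0.34, 0.40 and 0.39 in DMSO, 0.42, 0.41 and 0.48 under HPA-12, 0.32, 0.22 and 0.28 under crenolanib and 0.20, 0.16 and 0.13 under the combination. HPA-12 libraries were above DMSO and the other two groups below, with log2 differences of 0.19, -0.50 and -1.23. Each gave p = 0.1 in a two-sided exact permutation test, the smallest that 3 against 3 allows, and 0.18 after Benjamini-Hochberg adjustment over the 9 ratio comparisons. PSMB8 to PSMB5 differed from DMSO by -0.19, -0.34 and -0.76, and the combination libraries alone did not overlap with DMSO (exact permutation p = 0.1). PSMB9 to PSMB6 differed by 0.33, 0.38 and 0.32, with HPA-12 libraries all above DMSO (exact permutation p = 0.1) and the others overlapping it. Without combination replicate 2 the last of these became -0.58.

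**Figure D4:**
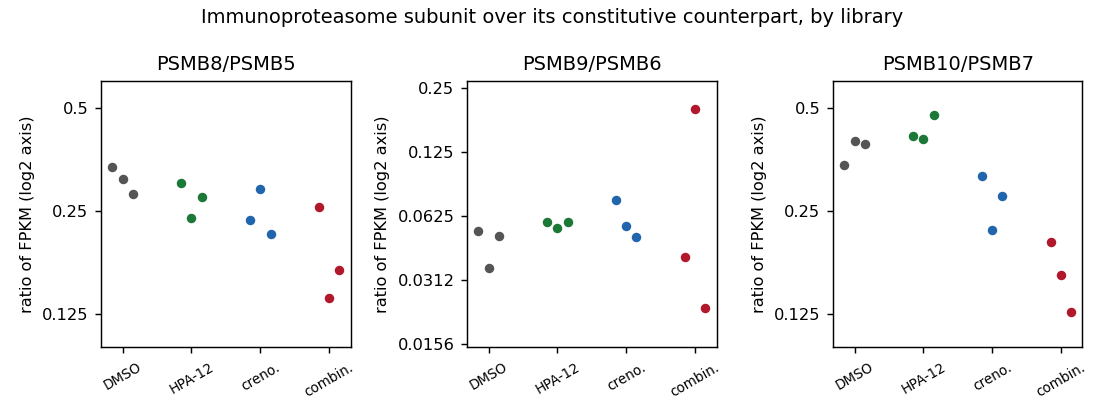
Ratio of FPKM of each immunosubunit to its standard counterpart (y axis, log2 scale) in each library (points) of the 4 groups. For PSMB10 to PSMB7 the HPA-12 libraries lie above the DMSO libraries, and the crenolanib and combination libraries lie below them, down to 0.13.

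Genes around the proteasome moved in both directions. Their counts and changes are as deposited where no scaling or smoothing is named. The counts stand against shares of all genes of 34.5% lower and 43.2% higher with HPA-12, 39.4% and 36.1% with crenolanib and 50.1% and 12.4% with the combination. After median-ratio scaling the shares with the combination were 26.1% and 21.4%. No test set these short lists against those shares. Of 10 genes that process NFE2L1 or act beside it, 6 rose and 1 fell with HPA-12, 7 rose and 2 fell with crenolanib, and 2 rose and 4 fell with the combination (3 and 1 after median-ratio scaling). MAFG, a small partner of NFE2L1 on DNA, rose by 0.91 ± 0.05 (SE, adjusted p = 2.84e-08) with HPA-12 and 1.35 ± 0.05 (SE, adjusted p = 3.13e-08) with crenolanib. MAFF, a partner of the same kind, rose by 2.61 ± 0.11 (SE, adjusted p = 7.32e-08) with crenolanib and 2.90 ± 0.21 (SE, adjusted p = 5.5e-05) with the combination. VCP, which extracts NFE2L1 from the endoplasmic reticulum, fell, with log2 changes of -0.73 ± 0.05 (SE, adjusted p = 2.81e-07) with HPA-12 and -1.51 ± 0.18 (SE, adjusted p = 0.000416) with the combination. NFE2L2, the related factor of the oxidative stress response, rose by 1.03 ± 0.11 (SE, adjusted p = 1.12e-05), 1.89 ± 0.08 (SE, adjusted p = 9.53e-08) and 0.70 ± 0.17 (SE, adjusted p = 0.0105) in the 3 comparisons.

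Of the 6 genes that supply ubiquitin, 2 rose and 2 fell with either single compound, and 3 rose and 1 fell with the combination (4 and 1 after median-ratio scaling). UBA1, the main ubiquitin-activating enzyme, fell, with log2 changes of -0.62 ± 0.05 (SE, adjusted p = 7.57e-07) under HPA-12, -1.20 ± 0.05 (SE, adjusted p = 8.07e-08) under crenolanib and -1.96 ± 0.14 (SE, adjusted p = 5.04e-05) under the combination. UBB, a polyubiquitin gene, fell, with a log2 change of -0.89 ± 0.06 (SE, adjusted p = 4.6e-07) with HPA-12. RPS27A, a fusion of ubiquitin and a ribosomal protein, rose by 0.69 ± 0.06 (SE, adjusted p = 3.75e-06) with crenolanib and 1.79 ± 0.07 (SE, adjusted p = 3.16e-06) with the combination.

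Of 16 shuttle and proteasome-bound proteins, 9 fell and 4 rose with HPA-12, 6 fell and 5 rose with crenolanib, and 10 fell and 2 rose with the combination (4 and 5 after median-ratio scaling). UBQLN4, a shuttle for ubiquitinated proteins, fell, with log2 changes of -2.10 ± 0.05 (SE, adjusted p = 1.44e-10), -1.55 ± 0.06 (SE, adjusted p = 3.72e-08) and -2.36 ± 0.18 (SE, adjusted p = 6.43e-05). UBE3C, a ligase bound to the proteasome, fell, with a log2 change of -1.69 ± 0.14 (SE, adjusted p = 9.94e-05) with the combination. Of 7 genes of immunoproteasome control and peptide loading, 2 fell and 3 rose with HPA-12, 4 fell and 3 rose with crenolanib, and 5 fell and 2 rose with the combination (2 and 2 after median-ratio scaling). B2M, the light chain of class I molecules, rose by 0.70 ± 0.05 (SE, adjusted p = 2.22e-07), 0.64 ± 0.04 (SE, adjusted p = 3.34e-07) and 0.55 ± 0.05 (SE, adjusted p = 0.000152) in the 3 comparisons, and its crenolanib value was 0.078 after GC smoothing (adjusted p = 0.104). TAP2, a subunit of the peptide transporter, fell, with a log2 change of -0.76 ± 0.08 (SE, adjusted p = 5.72e-06) with HPA-12. TAPBP, which helps load peptides, fell, with a log2 change of -1.93 ± 0.18 (SE, adjusted p = 0.000137) with the combination, and IRF1, a transcription factor of interferon responses, rose by 0.93 ± 0.09 (SE, adjusted p = 1.38e-05) with crenolanib.

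The single compounds were compared directly. Of the 45 tested proteasome genes, 18 were higher and 7 lower with crenolanib than with HPA-12, where 29% of all genes were higher and 35.1% lower. The median difference was 0.08 against -0.05 for all genes, and in 8 of the 45 every crenolanib library was below every HPA-12 library (37.7% of all genes). In 20 of the 45 every crenolanib library was above every HPA-12 library, a direction not counted over all genes. Lid genes made up 5 of the 18, with PSMD12 at 1.298 ± 0.10 (SE, adjusted p = 2.8e-06) and PSMD6 at 0.44 ± 0.08 (SE, adjusted p = 0.000568). PSMG1 was higher with crenolanib by 1.16 ± 0.11 (SE, adjusted p = 1.1e-05) and PSMA7 by 0.53 ± 0.05 (SE, adjusted p = 8.9e-06). NFE2L1 was lower, with a log2 difference of -0.64 ± 0.07 (SE, adjusted p = 2.07e-05), as were PSMB10 at -0.53 ± 0.11 (SE, adjusted p = 0.00169) and PSMD2 at -0.36 ± 0.04 (SE, adjusted p = 4.72e-05). After GC smoothing PSMB10 (-0.21, adjusted p = 0.114) and PSMD2 (-0.077, adjusted p = 0.0979) did not pass. For PSMB5 the difference between the compounds was 0.02 ± 0.06 (SE, adjusted p = 0.817), and for PSMB6 it was -0.07 ± 0.12 (SE, adjusted p = 0.624), neither of which passed, though PSMB5 was higher with crenolanib after GC smoothing (0.24, adjusted p = 0.00525).

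In the combination 19 genes were lower and 1, PSME1, was higher than with crenolanib alone, where 47.3% of all genes were lower and 6.79% higher. The median was -0.44 against -0.63 for all genes. After median-ratio scaling 2 were lower and 12 higher, where 12.9% of all genes were lower and 13.6% higher. The 19 became 11 without crenolanib replicate 2 and 12 without crenolanib replicate 3, and the 1 became 3 without combination replicate 1 and 2 without combination replicate 3. Against HPA-12 the combination had 15 lower and 4 higher, where 50.6% of all genes were lower and 11.9% higher. After median-ratio scaling it had 4 lower and 21 higher, where 24.3% of all genes were lower and 21.5% higher. The 4 higher became 7 without combination replicate 2. Every combination library was below every library of crenolanib in 27 genes (56.8% of all genes) and below every one of HPA-12 in 18 (56.7%). NFE2L1 was lower than with crenolanib, with a log2 difference of -1.37 ± 0.11 (SE, adjusted p = 0.00012) and lower than with HPA-12, at -2.02 ± 0.11 (SE, adjusted p = 1.33e-05). PSMD3 was lower in the same order, at -1.13 ± 0.16 (SE, adjusted p = 0.00108) and -0.98 ± 0.15 (SE, adjusted p = 0.00128), and so was PSME3, at -0.97 ± 0.12 (SE, adjusted p = 0.000735) and -1.18 ± 0.11 (SE, adjusted p = 0.000134). After median-ratio scaling PSMD3 did not pass against crenolanib (-0.48, adjusted p = 0.0684) or HPA-12 (-0.29, adjusted p = 0.183), and PSME3 did not pass against crenolanib (-0.32, adjusted p = 0.0994). PSMB5 differed by -0.03 and -0.01 and did not pass as deposited, but was 0.64 and 0.69 higher after median-ratio scaling (adjusted p = 0.0453 and 0.0223).

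The interaction asks whether the difference HPA-12 made to a gene was the same with and without crenolanib, as the step from crenolanib to the combination less the step from DMSO to HPA-12. Of the 45 genes 16 were higher and 7 lower, where 14.6% of all genes were higher and 49.7% lower, and the median was 0.06 against -0.65. After median-ratio scaling 27 were higher and 1 lower, where 24.4% of all genes were higher and 28.7% lower. The median was then 0.74 against -0.13 for all genes. The 7 lower became 4 without combination replicate 1. For PSMG1 the interaction was 1.77 ± 0.27 (SE, adjusted p = 4.37e-05): its log2 change with HPA-12 was -2.25 alone and -0.48 on top of crenolanib. For PSMB5 it was 1.12 ± 0.17 (SE, adjusted p = 4.03e-05), with -1.15 alone and -0.03 on top of crenolanib. PSME1 had 1.54 ± 0.20 (SE, adjusted p = 8.35e-06) and PSME2 1.24 ± 0.18 (SE, adjusted p = 3.27e-05). NFE2L1 went the other way at -1.48 ± 0.17 (SE, adjusted p = 3.51e-06), and remained at -0.81 after median-ratio scaling (adjusted p = 0.00468).

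The changes of the proteasome genes varied with the GC content of their longest coding transcript. Pearson's r across the 45 genes was -0.25 for HPA-12, -0.62 for crenolanib and -0.45 for the combination, and -0.20, -0.40 and -0.26 across 11118 tested genes with a GC value. These are descriptions across genes that share libraries and are not independent. The 23 proteasome genes at or below 51.8% GC had a median change of -0.01 with crenolanib and the 22 above it -0.88. For HPA-12 the medians were -0.56 and -0.89, and for the combination -0.65 and -1.07. Across all genes split at the same value the crenolanib medians were 0.27 and -0.44. After smoothing over GC content, an alternative added after the data were seen, 39 genes fell and 2 rose with HPA-12. With crenolanib 32 fell and 4 rose, and with the combination 14 fell and 7 rose. The shares of all genes that fell and rose were 36.5% and 41.4%, 33.8% and 32.5%, and 20.7% and 21.6% in the same order. The smoothing also recentres each library: the all-gene median with the combination went from -0.62 to -0.05. Median-ratio scaling, which has no GC term, gave 16 falls and 7 rises there. What part GC content had in these counts was not tested.

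**Figure D5:**
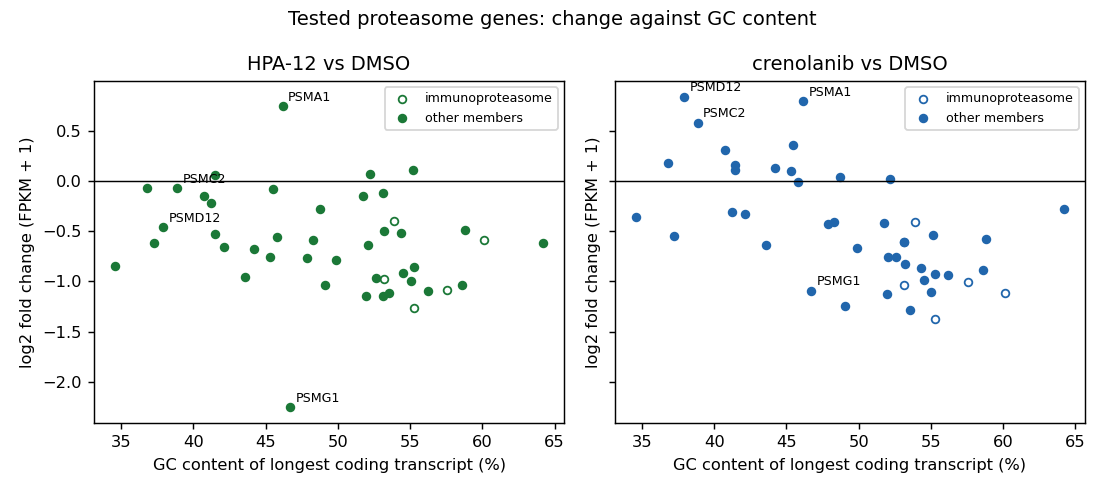
Log2 fold change against DMSO (y axis, FPKM plus 1) of the 45 tested proteasome genes against the GC content of the longest coding transcript (x axis, percent), for HPA-12 (left) and crenolanib (right), with immunoproteasome genes as open points. With crenolanib the genes that rose, PSMD12, PSMC2 and PSMA1 among them, lie at low GC, while with HPA-12 PSMG1 lies lowest.

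Few reads stood behind some values. PSMB9 rested on an estimated 14.7, 72.7 and 8.3 reads in the 3 combination libraries against 76.4 to 126.1 in DMSO, and PSMD10 on 18.5, 16.5 and 204.7. PSMD7, a lid subunit with 30.7% of its exon bases shared with a gene on the opposite strand, read 13.2, 16.4 and 3.62 FPKM in the combination against 23.1, 21.7 and 22.7 in DMSO, and its change of -1.17 ± 0.47 (SE, adjusted p = 0.0651) did not pass. PSMC1, a base ATPase, shares 75.8% with a gene on the opposite strand. Such overlaps limit these values, since the annotation and counting behind the deposited values are not stated.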

How the data were processed

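The deposited table holds FPKM values per gene and library, computed by the authors (per the file headers). Nothing used here states the aligner, counting, strandedness, genome build or annotation. All 12 value columns were matched to libraries by name (0 left over), and 20011 of 20036 identifiers had a symbol. The genes and lists were chosen with earlier results of these data known. A filter of 1 FPKM or more in 3 or more of the 12 libraries left 11149 genes. Values entered limma 3.58.1 (R 4.3.3) as log2(FPKM + 1), the 1 being the pseudocount (empirical Bayes with a mean-variance trend, two-sided), with Benjamini-Hochberg adjustment over all genes tested. This scale understates changes of low genes. Each pair of groups was fitted on its own 6 libraries, because the combination libraries spread more than the others; the interaction used all 12 with variance weights per group. The fits were tested on simulated data. Values by library are given for the 4 largest falls and 4 largest rises per comparison with DMSO, the catalytic subunits, POMP and NFE2L1. Genes around the proteasome were named by the smallest p, up to 2 per list and comparison, with NFE2L2 added; other members were named after their values were seen. Depth was estimated from the steps between low FPKM values with GENCODE release 29 gene lengths, which held 19852 identifiers, so read numbers are approximate. Gene overlaps and GC content also came from GENCODE release 29, which may differ from the annotation used by the authors. Alternatives were other scalings (median-ratio, upper-quartile, mitochondrially encoded genes left out), filters, a pseudocount of 0.1, fits of all 12 libraries, robust moderation, a replicate block, single libraries left out and, added after the data were seen, smoothing over GC content and the other scalings for counts by role and for genes around the proteasome. A gene that the naming rule gives is not reported here.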

Additional observations from a re-analysis of the deposited data

Results flagged for a closer look

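For part of the proteasome genes limma's interaction test called a difference between the step HPA-12 made with crenolanib and the step it made without. Of the 45 tested, 16 had a higher and 7 a lower value in the step from crenolanib to the combination less the step from DMSO to HPA-12, where 14.6% of all genes were higher and 49.7% lower, and the all-gene median of this difference was -0.65. After median-ratio scaling 27 were higher and 1 lower, where 24.4% of all genes were higher and 28.7% lower. PSMG1 (1.77), PSMB3 (1.12), PSMB5 (1.12), PSMA7 (1.09), PSMB6 (0.92) and PSMB8 (0.87) were higher on the log2 scale, each having fallen with HPA-12 alone. NFE2L1 (-1.48), PSMA1 (-0.93), PSMC2 (-0.92) and PSMD6 (-0.48) were lower. After median-ratio scaling NFE2L1 was at -0.81 (adjusted p = 0.00468), while PSMA1 (-0.30, adjusted p = 0.482), PSMC2 (-0.28, adjusted p = 0.231) and PSMD6 (0.17, adjusted p = 0.469) did not pass, and the deposited value of PSMD6 lay above the all-gene median. Groups of 3 libraries were too small to test single libraries as outliers.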

How the results depend on the processing

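In the comparisons of single compounds with DMSO the counts of falling genes moved little and stayed within 1.5 times under every alternative run. The rising count for HPA-12 went from 1 to 0 with a mean filter of 5 FPKM, and to 2 with mitochondrially encoded genes left out or after GC smoothing. For crenolanib it went from 6 to 10 with mitochondrially encoded genes left out. After GC smoothing crenolanib values turned to -0.021 for PSMC2, -0.16 for PSMA3 and 0.19 for ADRM1. PSME4 turned to -0.25 and then passed as a fall. With crenolanib against HPA-12, 4 were lower after GC smoothing, where 28.8% of all genes were lower. The combination depended on scaling. Against DMSO, 16 fell and 7 rose with median-ratio or upper-quartile scaling, and 14 and 7 after GC smoothing. The shares of all genes that fell and rose were 26.1% and 21.4% (median-ratio), 26.2% and 21.4% (upper-quartile) and 20.7% and 21.6% (GC smoothing). With mitochondrially encoded genes left out or all 12 libraries fitted 1 rose. Median-ratio values turned to 0.038 for POMP, 0.027 for PSMA7, 0.20 for PSMC2 and 0.42 for PSMD6, upper-quartile values to 0.033, 0.022, 0.20 and 0.42, and GC-smoothed ones to 0.010 for PSMB6 and 0.30 for PSMA7. Against crenolanib, 2 were lower and 12 higher with either scaling and 2 and 13 after GC smoothing. The shares of all genes were 12.9% and 13.6% (median-ratio), 13.1% and 13.5% (upper-quartile) and 12.3% and 14.4% (GC smoothing). With the 5 FPKM filter or all 12 libraries 2 were higher. Values turned to 0.64, 0.63 and 0.62 for PSMB5, 0.14, 0.14 and 0.12 for PSMB7, 0.63, 0.62 and 0.59 for PSMA7 and 0.060, 0.055 and 0.065 for PSMD6 (median-ratio, upper-quartile, GC smoothing). Against HPA-12, 4, 5 and 4 were lower and 21, 21 and 18 higher in that order. Of all genes 24.3%, 24.7% and 22.5% were lower and 21.5%, 21.3% and 24.4% higher. Values turned to 0.69, 0.68 and 0.87 for PSMB5, 0.63, 0.62 and 0.84 for PSMB6, 0.12, 0.11 and 0.40 for PSMB8, 0.55, 0.54 and 0.74 for PSMB3 and 0.53, 0.52 and 0.49 for PSMD6. The interaction had 1 lower under all 3, and 27, 27 and 30 higher. Of all genes 28.7%, 29% and 26.9% were lower and 24.4%, 24.2% and 27.8% higher. The cause of these shifts was not tested. With single libraries left out, the combination had 28 to 37 lower and 0 to 1 higher against DMSO, 11 to 22 and 1 to 3 against crenolanib, and 12 to 17 and 3 to 7 against HPA-12; the interaction had 4 to 8 lower and 13 to 18 higher. The log2 ratio of PSMB9 to PSMB6 in the combination against DMSO ran from -0.58 to 0.97. Replicate numbers did not pair the libraries: correlations of deviations between equal numbers were -0.0294 to 0.068. With the replicate block the falls against DMSO were 37 (HPA-12), 32 (crenolanib) and 31 (combination), and no count moved by over 1.5 times. The low depth of the combination limits what its values show for low genes such as PSMB9.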
